A study of Mus musculus with 6 samples.

Results

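The matrilins, COMP and the thrombospondins are secreted proteins that link other components of the extracellular matrix to each other and to cells. The 9 genes of these families were taken from the deposited expression table by symbol: Matn1, Matn2, Matn3, Matn4, Comp, Thbs1, Thbs2, Thbs3 and Thbs4. Each symbol matched 1 row, so all 9 were found among 27734 genes. Expression had been measured by RNA sequencing in E18.5 mouse rib chondrocytes, which were taken for RNA straight after enzymatic isolation and not cultured. The table holds 3 libraries labelled wild type and 3 labelled Jab1flox/flox; Col2a1-Cre, in which Cre driven by the Col2a1 promoter removes floxed Jab1 from cells of the cartilage lineage. Jab1 is encoded by Cops5 and is the catalytic subunit of the COP9 signalosome, which takes Nedd8 off cullin ligases. The labels do not say whether the wild-type embryos carried floxed alleles or Cre, nor whether each library came from 1 embryo. The comparison asks how the loss of Jab1 changes gene expression in chondrocytes.

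Matrilins are built from von Willebrand factor A domains, epidermal growth factor-like repeats and a coiled coil through which the chains join. Matrilin-1 and matrilin-3 are largely proteins of cartilage, where they connect collagen fibrils with aggrecan, whereas matrilin-2 and matrilin-4 are also found in many other tissues. Thrombospondins share calcium-binding repeats and a globular end that bind matrix proteins and cell surface receptors. Subgroup A, thrombospondin-1 and thrombospondin-2, forms trimers and is known for inhibiting blood vessel growth, and thrombospondin-1 also activates latent TGF-beta. Subgroup B, thrombospondin-3, thrombospondin-4 and COMP, forms pentamers. COMP, cartilage oligomeric matrix protein, binds collagens and matrilins, and dominant mutations in human COMP or MATN3 cause skeletal dysplasias in which the protein is held in the endoplasmic reticulum of chondrocytes.

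FPKM values are scaled by gene length and by sequencing depth, so levels of genes of different length can be set side by side. Differences were tested with limma on log2(FPKM + 1) over 14012 genes whose mean reached 1 FPKM, and the words rose and fell are kept for an adjusted p under 0.05. All 9 members passed this filter. Each log2 fold change is mutant minus wild type on this scale, which understates changes of low genes, with n = 3 libraries a group. An exact permutation test of 3 libraries against 3 reaches 0.1 at the smallest and was not used.

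Cops5 measured 39.8 to 42.3 FPKM in the wild-type and 17.0 to 18.0 FPKM in the mutant libraries, a log2 fold change of -1.18 (adjusted p = 0.000648), so the targeted gene fell and its RNA was still measured in every mutant library. With the Ddx3y level as a covariate for sex, the call for Cops5 also ended (log2 fold change -1.28, adjusted p = 0.0619). Ddx3y was at 0.450 FPKM or less in every wild-type library, so this covariate rests mainly on differences among the mutant libraries. Such fits cannot tell sex from other traits in which the mutant libraries differ. The cause of an ended call or turned sign in them was not tested. The columns totalled 571180 to 631534 FPKM. Of 12 chondrocyte markers 9 were analysed here, and all 9 were present in every library. Their summed level was 10500 to 12398 FPKM in wild-type and 7171 to 11693 FPKM in mutant libraries. None of these markers passed in limma. At an unadjusted p under 0.05, 3 were lower and 0 higher, where 24.7% of all genes reached that threshold in either direction. The median log2 fold change of the markers was -0.47. Mutant column 0 stood apart from mutant columns 1 and 2. It held both Xist (37.3 FPKM) and the Y-linked Ddx3y (7.78 FPKM), whereas the wild-type libraries held Xist at 63.1 to 65.9 FPKM with Ddx3y at 0.450 FPKM or less, and mutant columns 1 and 2 held Ddx3y at 46.1 and 36.0 FPKM with Xist at 0.0244 FPKM or less. Sex and genotype therefore cannot be told apart in most of the libraries. The immediate-early gene Egr1 was at 145 FPKM in mutant column 0 and at 3.16 to 10.1 FPKM in the other libraries. For the members, results that rest on this library are also given without it. Erythroid and neutrophil markers differed between the groups. The summed level of 5 erythroid genes was 175 to 200 FPKM in wild-type and 13.9 to 44.9 FPKM in mutant libraries. That of 5 neutrophil genes was 64.9 to 186 against 0.891 to 6.93 FPKM. The sum of 5 macrophage genes overlapped, at 10.6 to 22.8 against 6.86 to 28.3 FPKM. Of the erythroid genes 4 of 4 tested fell, and of the neutrophil genes 2 of 2, where 2.59% of all genes tested fell. The part of erythroid cells and neutrophils in the results was not tested. In bulk libraries, fewer cells of a type and less RNA per cell cannot be told apart.

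The 3 promoters below are printed to set side by side members with different patterns: Matn3 fell, Thbs3 was lower in every mutant library without passing the test, and Matn1 was not lower. Each sequence is the 250 bases before the RefSeq start (build GRCm38.p6), 5′ to 3′ on the strand of the gene, and capitals mark a match to a searched motif. RefSeq promoter sequences were matched for 6 of the 9 members (Matn1, Matn3, Matn4, Thbs2, Thbs3 and Thbs4), in 7 windows.
Matn3 (chr12:8947679-8947928, + strand): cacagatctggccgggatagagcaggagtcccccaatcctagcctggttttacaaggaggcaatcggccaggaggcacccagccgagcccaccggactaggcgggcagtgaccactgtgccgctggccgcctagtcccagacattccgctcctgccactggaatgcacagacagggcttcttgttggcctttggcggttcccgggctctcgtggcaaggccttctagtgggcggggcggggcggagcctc
Matn1 (chr4:130944135-130944384, + strand): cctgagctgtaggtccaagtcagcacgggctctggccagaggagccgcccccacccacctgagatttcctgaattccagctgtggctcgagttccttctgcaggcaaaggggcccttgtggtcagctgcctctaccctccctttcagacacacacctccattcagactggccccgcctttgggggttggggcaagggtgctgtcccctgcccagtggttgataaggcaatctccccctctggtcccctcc
Thbs3 (chr3:89214930-89215179, + strand): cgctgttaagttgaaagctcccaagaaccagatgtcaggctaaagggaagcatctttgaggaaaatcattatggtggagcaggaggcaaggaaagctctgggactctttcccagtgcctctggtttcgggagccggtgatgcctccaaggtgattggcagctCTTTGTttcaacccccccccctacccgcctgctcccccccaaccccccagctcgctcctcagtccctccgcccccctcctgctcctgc
The windows were searched for AP-1 letters (TGANTCA, both strands), SOX letters (ACAAAG or ACAATG, both strands), a full nuclear factor I site (TTGGC, any 5 bases, then GCCAA, both strands) and a TATA box (TATAAA, gene strand). The AP-1 motif was included because Jab1 is named for binding the Jun activation domain. The only match in the 7 windows was a SOX match in Thbs3, starting 88 bases before its start and reading CTTTGT on the gene strand. Among 32851 windows of the same length, 25.24% held a SOX match, 6.75% an AP-1 match, 0.04% a nuclear factor I match and 7.59% a TATA match. The printed windows are rich in G and C, at 65.2% in Matn3, 62.0% in Matn1 and 58.8% in Thbs3, where the median of all windows was 52.4%.

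Comp was the most abundant of the 9 genes in wild-type chondrocytes, at 801 ± 45.5 FPKM (SD, n = 3). Thbs1 followed at 388 ± 39.0 FPKM and Matn3 at 359 ± 31.8 FPKM, and the ranges of these neighbours overlapped. Matn1 was lower than both, at 255 ± 49.1 FPKM, and Thbs3 lower again, at 182 ± 9.17 FPKM. The other 4 genes were far lower in mean level: Matn4 at 16.3 ± 2.10 FPKM, Thbs2 at 10.1 ± 2.56 FPKM, Matn2 at 8.70 ± 0.247 FPKM and Thbs4 at 1.34 ± 0.833 FPKM. Among these, the ranges of Thbs2 and Matn2 overlapped and those of Matn4 and Thbs2 did not. In mutant libraries the order of the means was Comp, Thbs1, Matn1, Matn3, Thbs3, Matn4, Thbs2, Matn2 and Thbs4. Matn1 and Matn3 had thus changed places, but the libraries of Comp and Thbs1, of Thbs1 and Matn1, and of Matn1 and Matn3 overlapped within the mutant group.

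**Figure D1:**
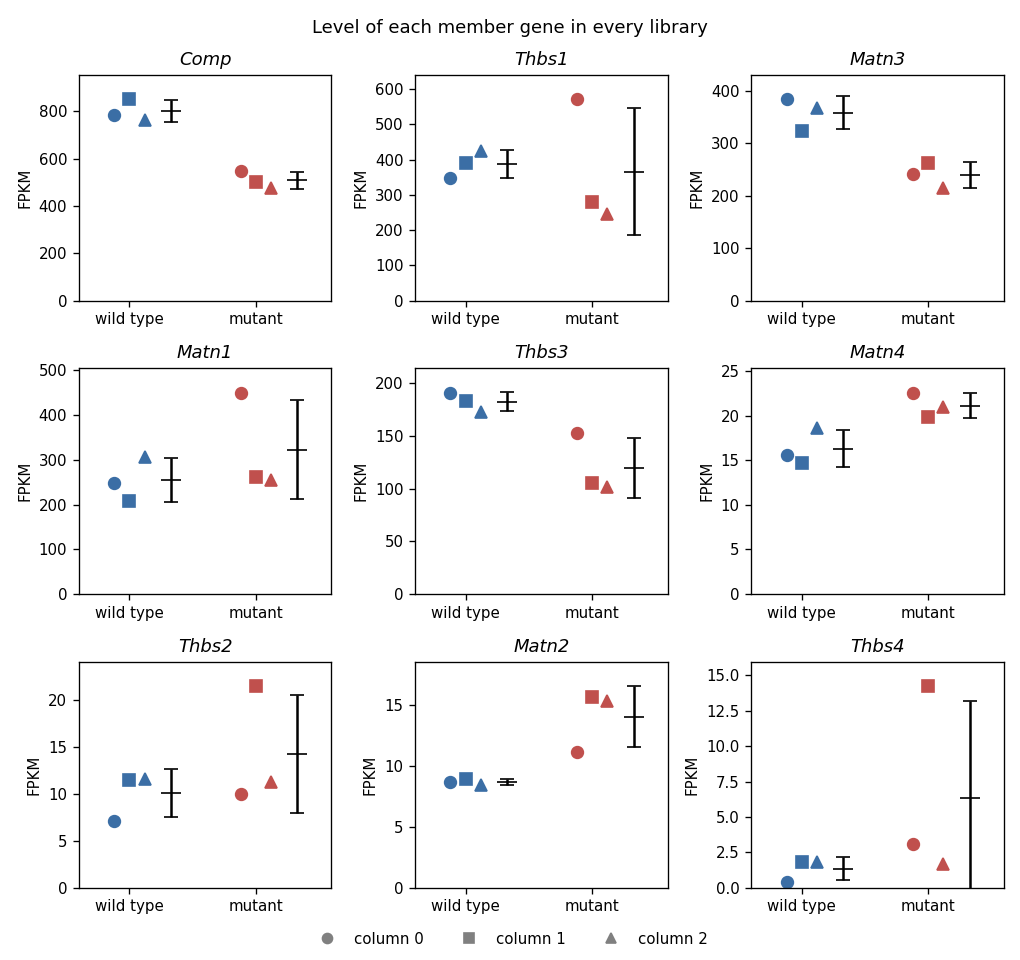
Level (FPKM, linear axis from 0) of each member gene in 3 wild-type (blue) and 3 mutant (red) libraries, with marker shapes for the column number and black bars for the mean ± SD; the part of the Thbs4 mutant bar that lies below 0 is not drawn. Comp, Matn3 and Thbs3 were lower in every mutant library, Matn2 and Matn4 higher in every mutant library, and mutant column 0 was highest for Thbs1 and Matn1.

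In mutant chondrocytes 2 of the 9 genes fell, Comp and Matn3, and none rose. Of all genes tested 2.59% fell and 3.48% rose, 6.07% together. Without regard to the test, the groups did not overlap for 5 members: Comp, Matn3 and Thbs3 were lower in every mutant library, and Matn2 and Matn4 were higher in every mutant library. Such a separation was seen in 15.9% of all genes with the mutant lower and in 16.3% with the mutant higher. At an unadjusted p under 0.05 the same 3 members were lower and the same 2 higher, where 24.7% of all genes reached that threshold. The median log2 fold change over the members was 0.30, and over all genes tested it was 0.00 to 2 decimals (-0.0039). The matrilins did not move in 1 direction, with Matn3 lower and Matn2 and Matn4 higher in every mutant library. With 1 library left out the background shares were smaller: 0.5, 0.48 and 0.567% of all genes fell without wild-type column 0, 1 and 2, and 2.07, 0.751 and 0.472% without mutant column 0, 1 and 2. The shares that rose were 0.743, 0.895, 0.71, 2.7, 1.31 and 0.937% in the same order. Library weights gave 5.82% higher and 4.8% lower, and a covariate for sex 0.871% higher and 0.128% lower.

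Comp measured 785, 852 and 765 FPKM in wild-type columns 0, 1 and 2 and 547, 499.8 and 476 FPKM in mutant columns 0, 1 and 2. Every mutant library lay below every wild-type library, and the mutant libraries lay closer together than the groups lay apart. The mutant mean of 508 ± 36.0 FPKM (SD, n = 3) was 0.634 times the wild-type mean, a log2 fold change of -0.66 (SE 0.0964, 95% interval -0.89 to -0.42, limma adjusted p = 0.024). The gene lies on chromosome 8, 70373558 to 70382066 on the plus strand (mm10), and no other annotated gene overlaps it. Leaving out 1 library at a time kept the log2 fold change between -0.71 and -0.61, but the call ended without any of the wild-type columns or mutant column 1 or 2 (adjusted p = 0.0759 to 0.0945). It held without mutant column 0 (adjusted p = 0.032). With the Ddx3y level as a covariate for sex the log2 fold change was -0.32 (adjusted p = 0.52).

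Matn3 measured 385, 324 and 369 FPKM in wild-type columns 0, 1 and 2 and 242, 263 and 215 FPKM in mutant columns 0, 1 and 2. The groups did not overlap, and mutant column 0 lay between the other mutant libraries. The mutant mean of 239.9 ± 24.4 FPKM was 0.668 times the wild-type mean (log2 fold change -0.58, SE 0.114, limma adjusted p = 0.045). Leaving out any 1 library ended the call (adjusted p = 0.077 to 0.15), with log2 fold changes of -0.65 to -0.50. With the Ddx3y covariate the log2 fold change was -0.64 (adjusted p = 0.40). Matn3 lies on chromosome 12, 8947929 to 8972028 on the plus strand. The next gene downstream, Wdr35, which encodes a component of the intraflagellar transport machinery of cilia, starts 1863 bases beyond it on the same strand and rose, from 16.4 to 18.2 FPKM in wild-type to 27.2 to 35.0 FPKM in mutant libraries (log2 fold change 0.80, adjusted p = 0.019).

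Matn1, which encodes cartilage matrix protein, did not follow Matn3. It measured 249, 209 and 307 FPKM in wild-type columns 0, 1 and 2 and 451, 262 and 256 FPKM in mutant columns 0, 1 and 2. Mutant column 0 was above every other library, while mutant columns 1 and 2 lay within the wild-type range. The log2 fold change was 0.30 (SE 0.265, 95% interval -0.35 to 0.96, adjusted p = 0.52) with all libraries and 0.04 (adjusted p = 0.91) without mutant column 0. Matn1 lies on chromosome 4, 130944385 to 130955475 on the plus strand.

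The balance between both cartilage matrilins did not overlap between the groups, and this difference was not tested. The ratio of Matn1 to Matn3 was 0.648, 0.647 and 0.833 in wild-type columns 0, 1 and 2 and 1.86, 0.994 and 1.19 in mutant columns 0, 1 and 2. The ratio was thus higher in every mutant library than in any wild-type library, also with mutant column 0 set aside. In mutant columns 1 and 2 Matn1 lay within the wild-type range, so there the higher ratio mostly restates the lower Matn3. The share of all gene pairs with such a separation was not computed. Matn1 made up 37.6 to 43.7% of the summed matrilin FPKM in wild-type and 46.7 to 62.0% in mutant libraries, and Matn3 52.4 to 58.4% and 33.3 to 47.0%. The summed matrilin level itself overlapped between the groups, at 556 to 703 FPKM in wild-type and 507 to 726 FPKM in mutant libraries.

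Matn2 and Matn4, the low and more widely expressed matrilins, were both higher in every mutant library, and neither passed the test. Matn2 measured 8.70, 8.95 and 8.45 FPKM in wild-type columns 0, 1 and 2 and 11.2, 15.7 and 15.3 FPKM in mutant columns 0, 1 and 2. The wild-type libraries were nearly level, and mutant column 0 was the mutant library nearest to them. The log2 fold change of Matn2 was 0.62 (SE 0.133, limma adjusted p = 0.055). Without mutant column 0 Matn2 rose (log2 fold change 0.77, adjusted p = 0.012). It also passed in 4 of the other alternatives, and with the Ddx3y covariate its sign turned (-0.17, adjusted p = 0.70).

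Matn4 measured 15.5, 14.6 and 18.7 FPKM in wild-type columns 0, 1 and 2 and 22.6, 19.8 and 20.9 FPKM in mutant columns 0, 1 and 2. The lowest mutant library was only just above the highest wild-type library. Its log2 fold change was 0.36 (SE 0.106, adjusted p = 0.11), and it passed under none of the 17 alternatives. Rbpjl, a gene on the other strand that overlaps Matn4, was at 0.0721 FPKM or less in every library.

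Thbs1, the more abundant gene of subgroup A, differed more among mutant libraries than between the groups. It measured 347, 392 and 425 FPKM in wild-type columns 0, 1 and 2 and 572, 279 and 245 FPKM in mutant columns 0, 1 and 2. Mutant column 0 was the highest of all 6 libraries and mutant columns 1 and 2 were the lowest. The log2 fold change was -0.19 (SE 0.329, 95% interval -0.998 to 0.62, adjusted p = 0.76), and without mutant column 0 it was -0.56 (adjusted p = 0.073). It turned to 0.047 without mutant column 2 and to 1.80 with the Ddx3y covariate (adjusted p = 0.95 and 0.19). Platelets are rich in thrombospondin-1, and 5 megakaryocyte and platelet genes summed to 12.4 to 21.2 FPKM in wild-type libraries and to 5.55, 9.72 and 8.30 FPKM in mutant columns 0, 1 and 2. Of these genes Gp1bb fell, and Pf4 measured 3.49 to 9.95 FPKM in wild-type and 1.23 to 4.84 FPKM in mutant libraries. Ppbp was at 1.15 FPKM or less and listed at 0 in mutant columns 0 and 2, and Gp9 was listed at 0 in 5 libraries. Itga2b was higher in every mutant library, at 0.696 to 0.817 FPKM against 0.576 to 0.681 FPKM. The part of platelets in the Thbs1 values was not tested.

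Thbs2 measured 7.10, 11.4 and 11.6 FPKM in wild-type columns 0, 1 and 2 and 9.97, 21.5 and 11.3 FPKM in mutant columns 0, 1 and 2. Only mutant column 1 lay above the wild-type range. The log2 fold change was 0.42 (SE 0.322, adjusted p = 0.48) with all libraries and 0.10 (adjusted p = 0.83) without mutant column 1.

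Thbs3, like Comp a member of subgroup B, measured 191, 183 and 173 FPKM in wild-type columns 0, 1 and 2 and 153, 105 and 102 FPKM in mutant columns 0, 1 and 2. All mutant libraries were lower, and mutant column 0 lay nearest to wild type. With all libraries it did not pass (log2 fold change -0.63, SE 0.169, adjusted p = 0.092), whereas without mutant column 0 it fell (log2 fold change -0.81, SE 0.0743, adjusted p = 0.017). It was also called lower with library weights (adjusted p = 0.022), and its sign turned with the Ddx3y covariate (0.42, adjusted p = 0.35). Thbs3 lies on chromosome 3, 89215180 to 89226837 on the plus strand, and overlaps Mtx1, a gene for a mitochondrial import protein on the minus strand. The libraries were stranded, but whether the counting used strand is not given in the sources used here. Mtx1 measured 36.6 ± 4.90 FPKM in wild-type and 34.4 ± 2.34 FPKM in mutant libraries (adjusted p = 0.68).

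The ratio of Comp to Thbs3 was 4.11 to 4.64 in wild-type libraries and 3.59, 4.76 and 4.69 in mutant columns 0, 1 and 2, so the proportion of these subgroup B genes overlapped between the groups. Comp to Matn3 gave 2.04 to 2.63 in wild-type and 1.90 to 2.26 in mutant libraries, again overlapping. The ratio of Comp to Thbs1 was 1.80 to 2.26 in wild-type libraries. It was 1.79 and 1.94 in mutant columns 1 and 2 but 0.956 in mutant column 0. Only in that library was Thbs1 the higher gene of the pair. The ratio of Thbs1 to Matn1 was 1.38 to 1.87 in wild-type libraries and 1.27, 1.07 and 0.957 in mutant columns 0, 1 and 2. Like that of Matn1 to Matn3, this ratio did not overlap between the groups, and the difference was not tested.

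Thbs4, a thrombospondin of tendon and muscle, was the lowest of the members. It measured 0.383, 1.80 and 1.85 FPKM in wild-type columns 0, 1 and 2 and 3.06, 14.2 and 1.65 FPKM in mutant columns 0, 1 and 2. Mutant column 1 alone stood far above the rest, and mutant column 2 lay within the wild-type range. The log2 fold change was 1.30 (SE 0.696, 95% interval -0.42 to 3.01, adjusted p = 0.31), and 0.56 (adjusted p = 0.49) without mutant column 1. The tendon gene Tnmd was also highest in that library, at 29.2 FPKM against 8.33 FPKM or less in the others, as were Postn, a matrix protein of perichondrium, at 265 against 45.7 to 80.8 FPKM, and Thbs2. Of the other tendon markers, Scx was at 0.994 to 2.63 FPKM, highest in mutant column 1, Mkx at 1.72 to 2.76 FPKM, highest in wild-type column 2, and Fmod at 177 to 471 FPKM, highest in wild-type column 1. The summed level of 7 fibroblast and perichondrium genes was 301 to 664 FPKM in wild-type and 398 to 773 FPKM in mutant libraries, highest in mutant column 1. Of these genes Postn, Col3a1, Pdgfra, Thy1 and Dpt were highest in mutant column 1, whereas Col1a1 was at 67.3 FPKM and Col1a2 at 225 FPKM in that library against up to 178 and 297 FPKM in wild-type libraries. The part of these cells in the Thbs4 and Thbs2 values was not tested.

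**Figure D2:**
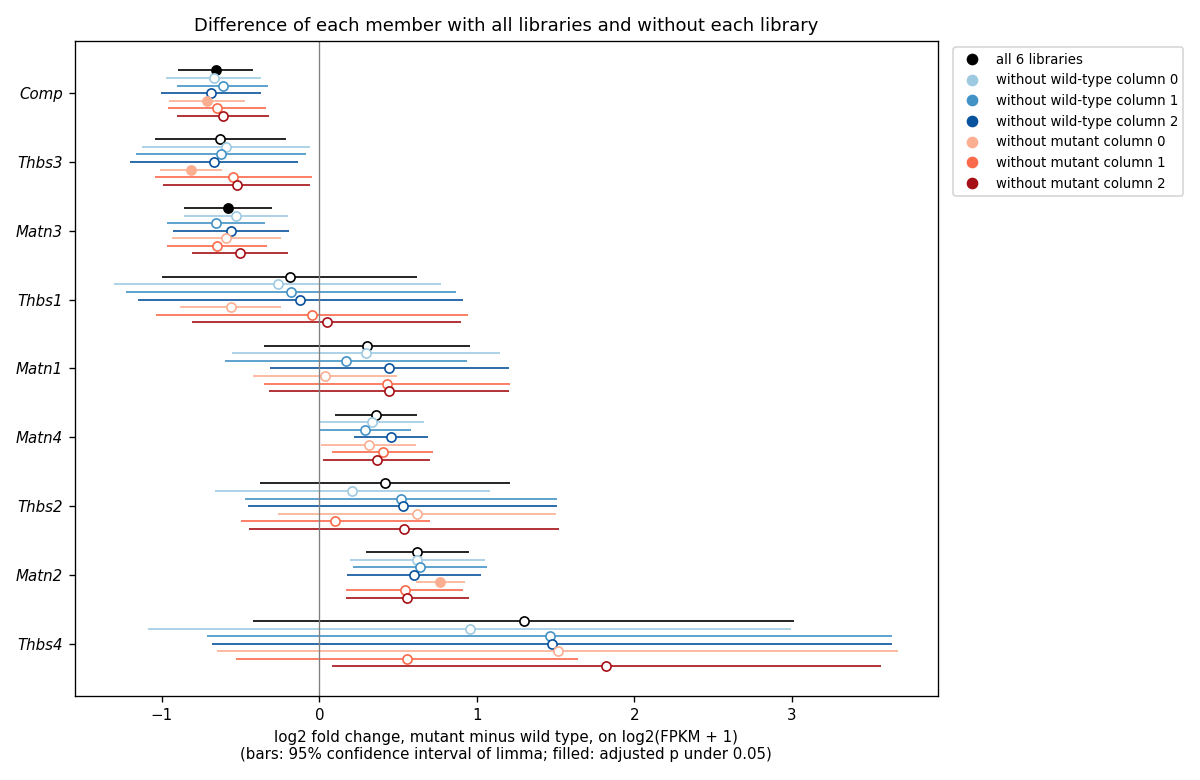
Log2 fold change (mutant minus wild type, log2(FPKM + 1)) of each member with all 6 libraries (black) and without each library in turn, with the 95% confidence interval of limma; filled points passed at an adjusted p under 0.05. Comp stayed between -0.71 and -0.61 while its call came and went, Thbs3 and Matn2 passed without mutant column 0, and the intervals of Thbs1, Matn1, Thbs2 and Thbs4 were wide.

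As a share of all measured expression, the 9 genes made up 0.315 to 0.363% of the column totals in the wild-type group. The mutant shares were 0.336, 0.239 and 0.234% in columns 0, 1 and 2. Mutant column 0 lay within the wild-type range and the other mutant libraries below it. The COMP and thrombospondin genes summed to 1331 to 1440 FPKM in wild-type libraries and to 1285, 919 and 836 FPKM in mutant columns 0, 1 and 2. Within that family Comp held 55.6 to 59.1% of the sum in wild-type libraries and 54.4 and 57.0% in mutant columns 1 and 2, but 42.6% in mutant column 0, where Thbs1 held 44.5%. Thbs3 held 12.6 to 14.4% in wild-type and 11.4 to 12.2% in mutant libraries.

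**Figure D3:**
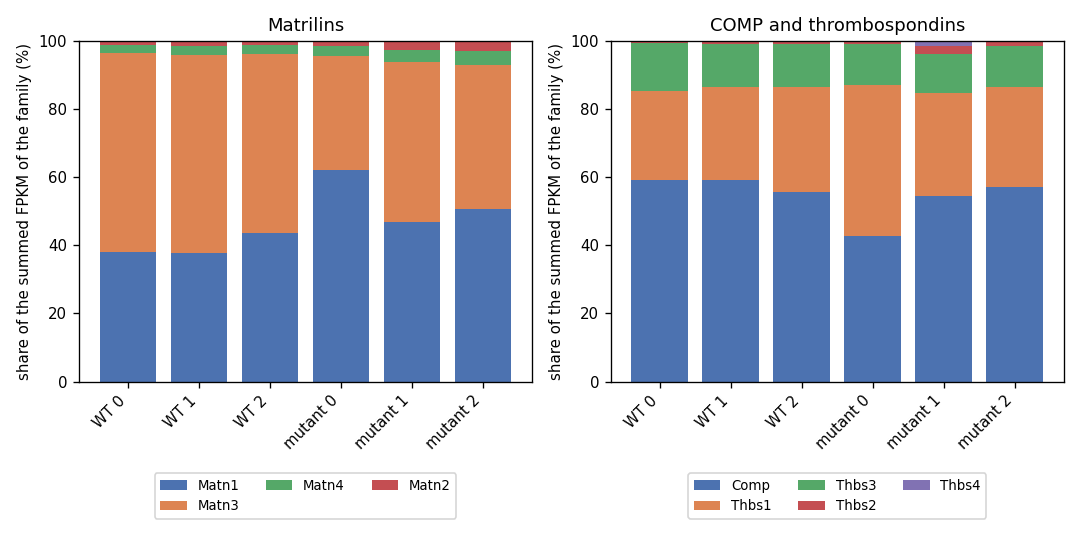
Share (%) of each gene in the summed FPKM of the matrilins (left) and of COMP and the thrombospondins (right), 1 stacked bar for each of 6 libraries (WT, wild type; numbers are column numbers). Matn1 held a larger share of the matrilins in each mutant library than in any wild-type library, and in mutant column 0 Thbs1 held 44.5% of its family against 42.6% for Comp.

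Among 9353 other genes whose mean reached 5 FPKM, those nearest to Comp in pattern over the 6 libraries were Klc2, Tspan2 and Fbln5, by the root mean square difference of log2(FPKM + 1) centred on the wild-type mean (0.0348, 0.0384 and 0.0627). Klc2 encodes a kinesin light chain, Tspan2 a tetraspanin, and Fbln5 an extracellular protein of elastic fibres. Nearest to Matn1 were 5031425E22Rik, Vit and Pid1 (0.127, 0.141 and 0.142), of which Vit encodes vitrin, another matrix protein with von Willebrand factor A domains. Nearest to Thbs1 were Gm45738, Sh2d3c and Sned1 (0.0810, 0.109 and 0.110), of which Sned1 encodes a matrix glycoprotein. Mutant column 0 was the highest library for each of the 6 genes nearest to Matn1 and Thbs1, as it was for both members. Those genes were chosen for likeness to these members over the same 6 libraries, so a shared highest library largely follows from the choice.

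Of the genes whose products bind matrilins or COMP, 1 of 8 tested fell and none rose in limma (3 lower and 0 higher at an unadjusted p under 0.05), with a median log2 fold change of -0.46. Dcn, encoding the small proteoglycan decorin that bridges matrilins and collagen, fell from 469 to 524 FPKM in wild-type to 305 to 363 FPKM in mutant libraries (log2 fold change -0.56, adjusted p = 0.040). The call ended without any 1 of the 6 libraries (adjusted p = 0.0561 to 0.128), with the replicate block (adjusted p = 0.157) and with the Ddx3y covariate (adjusted p = 0.179). It also ended with no filter on low values and with libraries scaled to equal totals. Bgn, the related biglycan, measured 742 ± 65.0 against 539 ± 51.6 FPKM (adjusted p = 0.078). The collagen IX chains that carry COMP and matrilin-3 on the fibril surface, Col9a2 and Col9a3, measured 1960 ± 197 against 1392 ± 329 FPKM (adjusted p = 0.18) and 2438 ± 299.6 against 1852 ± 411 FPKM (adjusted p = 0.26). Acan followed Thbs1 and Matn1 in its order among mutant libraries, at 1516, 540 and 412 FPKM in mutant columns 0, 1 and 2 against 905 to 1062 FPKM in wild type.

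None of 9 tested thrombospondin receptors passed in limma. At an unadjusted p under 0.05, 1 was higher and 3 lower, with a median log2 fold change of 0.02. Cacna2d1, a calcium channel subunit, measured 11.7 ± 0.290 FPKM in wild-type and 9.26 ± 0.577 FPKM in mutant libraries (adjusted p = 0.059). Cd47, a receptor for thrombospondin-1 known for restraining phagocytes, measured 24.7 ± 1.22 against 18.4 ± 2.49 FPKM (adjusted p = 0.090). Calr, the chaperone calreticulin that also serves at the cell surface as a thrombospondin-1 partner, measured 400 to 408 FPKM in wild-type libraries against 855, 526 and 582 FPKM in mutant columns 0, 1 and 2 (adjusted p = 0.11), and Itgb1 149 ± 12.3 against 171 ± 12.4 FPKM (adjusted p = 0.26).

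Of 6 tested proteases known to cut members of these families 2 rose and none fell, where 3.48% of all genes tested rose. Those that rose were Mmp3 and Htra1. Both reached the filter's mean of 1 FPKM only through the mutant libraries, and the list was chosen with earlier results known. Their count beside that share is therefore not a result about proteases. Mmp3, stromelysin, rose from 0.616 ± 0.142 to 4.93 ± 1.69 FPKM (log2 fold change 1.84, adjusted p = 0.019). The call for Mmp3 ended when any wild-type library or mutant column 1 was left out (adjusted p = 0.0641 to 0.0765), with the replicate block (adjusted p = 0.0761) and with the Ddx3y covariate (adjusted p = 0.149). Htra1, which degrades several matrix proteins, had a listed value of 0 in every wild-type library. It was at 51.3, 51.3 and 46.7 FPKM in mutant columns 0, 1 and 2. Whether the listed value of 0 stands for absent RNA or for a missing value is not given in the sources used here. Without Htra1 the list's median log2 fold change was 0.43. Mmp13, collagenase of hypertrophic cartilage, measured 68.0 ± 31.1 against 93.3 ± 46.7 FPKM (adjusted p = 0.63). Adamts7, an enzyme that degrades COMP, measured 1.37 to 1.64 FPKM in wild-type and 0.574 to 0.946 FPKM in mutant libraries (adjusted p = 0.15), and Adamts12, with the same substrate, 3.00 ± 0.616 against 3.19 ± 0.642 FPKM (adjusted p = 0.84).

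Of 7 genes of latent TGF-beta none passed in limma. An unadjusted p under 0.05 was reached by 3 with the mutant higher and 1 with it lower, and by 24.7% of all genes in either direction. The list's median log2 fold change was -0.21. Ltbp1, a latency binding protein, measured 2.60 ± 0.912 against 5.67 ± 0.808 FPKM (adjusted p = 0.058), Tgfb3 17.4 ± 1.27 against 24.0 ± 3.52 FPKM (adjusted p = 0.095) and Tgfb2 48.4 ± 4.78 against 39.2 ± 8.13 FPKM (adjusted p = 0.29). Among 13 transcription factors known to act on members of the families 1 fell and none rose, where 2.59% of all genes tested fell. The median of these factors was -0.19. Nfic, of the nuclear factor I family that acts on Matn1, fell from 24.2 ± 2.39 to 13.7 ± 0.579 FPKM (log2 fold change -0.77, adjusted p = 0.013), a call that ended without mutant column 2 (adjusted p = 0.0603), with the replicate block (adjusted p = 0.101) and with the Ddx3y covariate (log2 fold change -0.53, adjusted p = 0.332). Sox9, the chondrocyte regulator, measured 74.3 to 77.7 FPKM in wild-type libraries against 70.6, 56.4 and 38.9 FPKM in mutant columns 0, 1 and 2 (adjusted p = 0.22). Mutant column 0 lay nearest to wild type, as for Thbs3, Comp and Matn2, and a link of these members to Sox9 was not tested. Id1, an inhibitor of helix-loop-helix factors that represses Thbs1 in other cells, measured 99.7 ± 4.86 against 193 ± 97.0 FPKM (adjusted p = 0.19) and was at 305, 130 and 144 FPKM in mutant columns 0, 1 and 2.

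None of 11 tested genes of other matricellular proteins and matrix proteins with von Willebrand factor A domains passed in limma. An unadjusted p under 0.05 was reached by 4 with the mutant higher and 0 with it lower, and by 24.7% of all genes in either direction. The list's median was 0.36. Ccn2, connective tissue growth factor, measured 139 ± 24.5 against 257 ± 51.2 FPKM (adjusted p = 0.057). Tnc, tenascin-C, measured 60.5 ± 13.5 against 84.3 ± 3.01 FPKM (adjusted p = 0.15), and Spp1, osteopontin, 746 ± 257 against 1673 ± 686 FPKM (adjusted p = 0.18). Sparc, osteonectin, was the highest of the list at 4204 ± 699 against 4348 ± 1079 FPKM (adjusted p = 0.95).

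**Figure D4:**
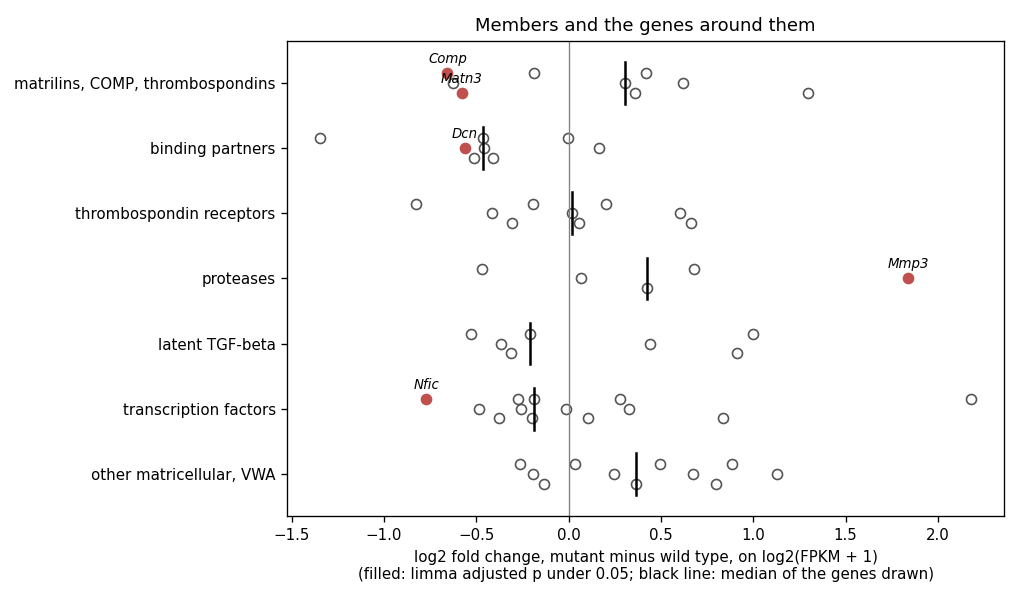
Log2 fold change (mutant minus wild type, log2(FPKM + 1)) of the 9 members and of the tested genes in 6 lists around them, 1 point a gene, filled and named where limma's adjusted p was under 0.05, with the median of the genes drawn as a black line; Htra1, listed at 0 in wild type, is not drawn. Of the genes drawn, Comp, Matn3, Dcn and Nfic fell and Mmp3 rose.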

How the data were processed

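Gene expression was measured in 6 rib chondrocyte libraries, 3 wild type and 3 mutant. The authors deposited FPKM values in 1 table with a column for each library. Per the submitters' processing notes, STAR, Cufflinks and Cuffdiff were used with mm10; per the labels' protocols, libraries were stranded and depleted of ribosomal RNA, single-end reads of 50 bases were sequenced and CLC Genomics Workbench was used. Versions, strand setting and scaling between libraries are not given in the sources used here. Column names gave the groups. Since column numbers run from 0 to 2 where the sample descriptions have 0, 1 and 3, the last column of each group was assigned to its group alone. Libraries are named by column number. No source states that each library is a different animal, and the spread behind every p-value may therefore be technical. The title of wild-type column 0 carries day 30 of the month and those of the other dated columns day 24.

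Gene positions came from GENCODE M21 by gene identifier (27578 of 27734 matched), promoters from RefSeq. Values were transformed as log2(FPKM + 1), a pseudocount of 1, and all genes whose mean reached 1 FPKM entered a linear model with a mean-variance trend (limma 3.58.1, R 4.3.3), two-sided, with Benjamini-Hochberg adjustment over 14012 genes and a threshold of 0.05. The script was tested on simulated data. Without read counts, counting error could not be computed. Library depths were put at 0.987 to 1.44 of that of wild-type column 0. They came from the commonest ratio to that column among small RNA genes, shared by 40 to 50 genes in each other library. Means are given with SD.

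The members and the 6 lists around them were chosen with earlier results of these data known. Named genes were the members, Cops5, Xist and Ddx3y, the passing genes of each list, its 2 smallest p and 2 highest means, and the 3 genes nearest in pattern to Comp, Matn1 and Thbs1. Others (Acan, Egr1, Adamts7, Adamts12, genes next to members and single markers) were named after their values were seen. Alternatives were other pseudocounts, filters, scalings, variance prior, library weights, a covariate for sex, a replicate block and leaving out each library.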

Additional observations from a re-analysis of the deposited data

How the results depend on the processing

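Of 17 alternatives, Comp was called lower in 9 and Matn3 in 7, and both kept their direction in all. The number of members that fell (2 as reported) was 3 with library weights and 1 with median-of-ratios scaling. It was 0 with no filter on low values, with the Ddx3y covariate and with the replicate block, and ranged from 0 to 2 when 1 library was left out. The number that rose (0 as reported) was 1 with a pseudocount of 0.1, with a minimum mean of 5 FPKM, with a robust variance prior and with library weights, Matn2 in each case, and ranged from 0 to 1 when 1 library was left out. With the Ddx3y covariate the log2 fold change turned sign for Matn2 (-0.17), Thbs1 (1.80), Thbs2 (-0.92), Thbs3 (0.42) and Thbs4 (-0.51), none of which passed, and that of Thbs1 ranged from -0.56 to 0.047 when 1 library was left out, turning sign without mutant column 2. The fit with the Ddx3y covariate rests mainly on differences among the mutant libraries. The cause of these turns was not tested.

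Over all genes, 487 rose and 363 fell. These numbers were 295 and 166 with no filter, 258 and 227 with libraries scaled to equal totals, 816 and 672 with library weights, 122 and 18 with the Ddx3y covariate and 44 and 16 with the replicate block. When 1 library was left out they ranged from 99 to 377 and from 66 to 289, with fewer libraries in each fit. No scaling moved the median log2 fold change of all genes by over 0.1.

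Columns with the same number share only a number: their deviations from the group means correlated at -0.0421 to -0.0226, and 0 of 6 columns correlated best with their own number. Without mutant column 0 Comp and Thbs3 fell and Matn2 rose, and without any other 1 library no member passed. Read depth behind each value was not analysed here, and 3 libraries a group limit the precision for Thbs1, Thbs2 and Thbs4, whose mutant libraries differed most. Low genes are understated on this scale.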

Other observations

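The genes beside the members fall into related sets. In mm10, Laptm5 ends 8243 bases before Matn1, Laptm4b ends 22374 bases before Matn2 and Laptm4a ends 9186 bases before Matn3, each on the strand of its matrilin, and these 3 neighbours encode lysosomal transmembrane proteins of 1 family. Among the thrombospondins, Mtx1 overlaps Thbs3 and Mtx3 lies 49941 bases from Thbs4, both encoding metaxins. Their levels stood in different relation to those of the members: Laptm5 measured 2.33 ± 1.14 FPKM in wild-type libraries where Matn1 was at 255 ± 49.1 FPKM, Laptm4b 8.61 ± 0.517 where Matn2 was at 8.70 ± 0.247 FPKM, and Laptm4a 501 ± 25.3 where Matn3 was at 359 ± 31.8 FPKM. In the mutant, Laptm4a measured 547 ± 11.8 FPKM (log2 fold change 0.13, limma adjusted p = 0.39) where Matn3 fell, Laptm4b 10.1 ± 0.728 FPKM (0.21, adjusted p = 0.18), higher in every mutant library as Matn2 was, and Laptm5 1.48 ± 1.20 FPKM (-0.47, adjusted p = 0.51). These neighbours were named after their positions and values were seen.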
